A study of Rattus norvegicus with 2 samples.

Results

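A set of 10 genes of macrophages and Fc receptors was followed in rat lung RNA: the Fc receptors Fcgr1a and Fcgr3a, the signalling adaptors Fcer1g and Tyrobp, the growth factor receptor Csf1r, the adhesion receptor Adgre1, the lysosomal glycoproteins Cd68 and Gpnmb, the pore-forming protein Mpeg1 and the lectin Lgals3. They were found by symbol or synonym in the named probes of the arrays, where Adgre1 stands under its older name Emr1. All 10 of 10 were measured, by 13 of the 20417 probes that carry a gene name, and they make up 10 of 15611 named genes. RefSeq also lists Fcgr3a as a synonym of the neighbouring gene Fcgr2a, whose values are given beside those of Fcgr3a and are not counted with the 10.

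The series holds 1 group, lung, with replicates 1 and 2, which are untreated rat lung cells taken without culture. The sources used here give no strain, sex or age. On both two-colour Agilent arrays the lung RNA was labelled with Cy3 and hybridised against a single control RNA in Cy5, called mix1, pooled from bone marrow cells and primary ear fibroblasts that had each been cultured with fetal bovine serum. The question was how lung differs from these cultured adult cells. Every value below is the log2 ratio of lung over mix1, in which 1 stands for a 2-fold higher and -1 for a 2-fold lower signal in lung. The sign is likely but not stated outright, and with it turned every direction would be the opposite. The 6 surfactant, club cell and alveolar type 1 genes used to settle it (Sftpc, Sftpa1, Sftpb, Sftpd, Scgb1a1 and Ager) had ratios between 3.94 and 7.02. Whether the lung samples are from different animals is not labelled, and the p-values therefore cover just the spread of these samples, possibly a technical one. There was 1 control RNA, whose own spread is left out, and without a dye swap an effect of the dyes and a difference between the RNAs cannot be told apart. The number of arrays limits the precision.

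Macrophages are phagocytes that settle in tissues from embryonic precursors and from blood monocytes, and the lung holds them in the air spaces and in the interstitium. Fc receptors bind the constant part of antibodies on coated particles. In rodents most of the activating ones pass the signal through small adaptors, chiefly the Fc receptor gamma chain encoded by Fcer1g, whose tyrosine motif (ITAM) recruits the kinase Syk. DAP12, encoded by Tyrobp, is the corresponding adaptor of many other receptors on myeloid and natural killer cells.

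In the comparison of lung with mix1, 6 of the 10 genes were higher in lung, 3 were lower and 1 did not pass the test, which was limma's moderated test at a Benjamini-Hochberg adjusted p under 0.05 over all genes. Fcgr3a stood highest at 4.76 ± 0.01 (SD, n = 2), or 27.0-fold, and the adaptors Fcer1g and Tyrobp were 4.27-fold and 2.76-fold higher. Mpeg1 was 4.94-fold higher, Cd68 was 1.65-fold and Fcgr1a 1.40-fold higher, and Csf1r did not pass. Adgre1, Lgals3 and Gpnmb were lower in lung, by 2.02-fold, 1.64-fold and 3.41-fold. Passing this test is common on these arrays: 82.7% of all genes passed, 32.9% as higher and 49.7% as lower (38.5% and 38.0% after centring each array on its median, which adds 0.19 to the mean ratio). With a rule that does not use the spread between arrays, at least 2-fold in the same direction on both, 4 of the 10 genes were higher (Fcgr3a, Mpeg1, Fcer1g and Tyrobp) and 2 were lower (Gpnmb and Adgre1), beside 16.5% and 15.8% of all genes. The median ratio of the 10 genes was 0.61, beside -0.22 for all genes.

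**Figure D1:**
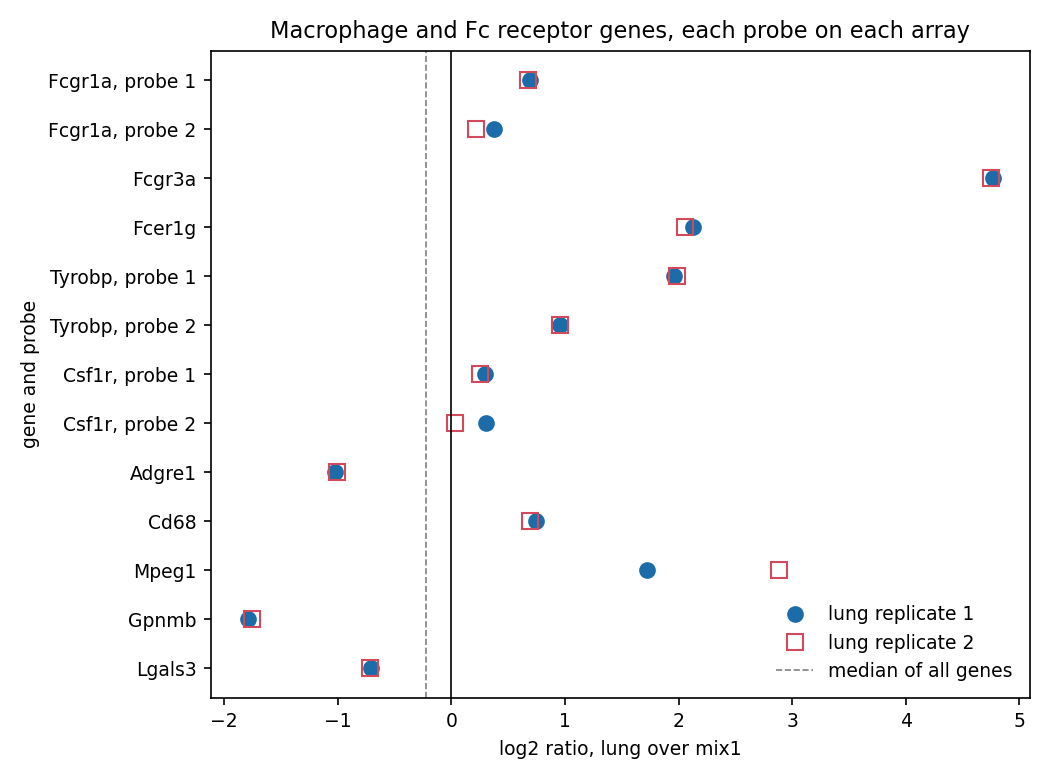
Log2 ratio of lung over mix1 (x axis) of each of the 13 probes (rows) in lung replicate 1 (filled circles) and lung replicate 2 (open squares); the dashed line is the median of all genes. The pair of marks nearly coincide for most probes, Mpeg1 lies at 1.72 in replicate 1 and 2.89 in replicate 2, and Fcgr3a stands apart at 4.77 and 4.75.

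Fcgr3a encodes a low-affinity receptor for IgG complexes. The gene that now carries this symbol in the rat has the synonyms CD16-2 and Fcgr4. Its single probe read 4.77 in lung replicate 1 and 4.75 in replicate 2, and 98.8% of all genes had a lower mean ratio (adjusted p 0.00117). Fcgr1a encodes the high-affinity IgG receptor CD64, a marker of monocytes and macrophages. Its ratio was 0.54 in replicate 1 and 0.44 in replicate 2 (0.49 ± 0.06; SD, n = 2; adjusted p 0.00767), and its 2 probes lay at 0.68 and 0.30. Both receptors were thus higher in lung on both arrays, and the difference between them, which does not depend on how the arrays were centred, was 4.23 in replicate 1 and 4.30 in replicate 2 on the log2 scale. These are differences between ratios of different probes and say nothing of which gene was more abundant.

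The other low-affinity IgG receptors split. Fcgr2b, the inhibitory receptor, was higher in lung at 1.61 in replicate 1 and 1.56 in replicate 2, or 3.0-fold (adjusted p 0.00137). Fcgr2a, an activating receptor, was lower at -0.45 in replicate 1 and -0.47 in replicate 2, or 1.37-fold (adjusted p 0.00473). Read by its synonym, Fcgr3a would therefore have had the opposite direction. In RefSeq's gene order of assembly GRCr8, Fcgr2b, Fcgr3a and Fcgr2a follow each other on chromosome 13, and Fcer1g lies further along, at the end of a stretch of 13 protein-coding genes that starts with Fcgr2b. These receptors are close relatives, and how far their probes share signal was not tested.

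Of 10 further genes that encode Fc receptors, their chains or antibody-binding proteins, 8 were higher in lung and 2 lower, with a median of 1.61. Fcrla, an Fc receptor-like protein of B cells, had a ratio of 4.49 ± 0.13 (SD, n = 2) and Pigr, which carries IgA and IgM across epithelium, one of 3.68 ± 0.0049. Ms4a2 and Fcer1a encode the beta and alpha chains of the IgE receptor of mast cells, which also contains the Fcer1g chain, and were higher at 2.73 ± 0.05 and 1.63 ± 0.31. The 2 probes of Ms4a2 lay at 1.18 and 4.29. Trim21, the cytosolic antibody receptor, was higher at 2.02 ± 0.43, Fcer2, the low-affinity IgE receptor, at 0.51 ± 0.13, and Fcgrt, the neonatal Fc receptor, at 0.33 ± 0.04. The 2 probes of Fcer2 lay at 0.24 and 0.77, and the lower one did not pass by itself (adjusted p 0.0619). The other lower gene beside Fcgr2a was Fcrl2 at -1.91 ± 0.0021.

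The promoter of Fcgr3a is shown because this gene had the highest ratio, and that of Gpnmb because it had the lowest; both are the 250 bases before the gene's start in RefSeq's GRCr8 table, 5′ to 3′ on the gene's strand. Capitals mark AGGAAG or CTTCCT, its other strand, a core bound by ETS factors such as PU.1, the master regulator of myeloid cells, and CATGTG or CACATG, an E-box form bound by MITF and its relatives.
Fcgr3a, chr13:85782386-85782635, strand +: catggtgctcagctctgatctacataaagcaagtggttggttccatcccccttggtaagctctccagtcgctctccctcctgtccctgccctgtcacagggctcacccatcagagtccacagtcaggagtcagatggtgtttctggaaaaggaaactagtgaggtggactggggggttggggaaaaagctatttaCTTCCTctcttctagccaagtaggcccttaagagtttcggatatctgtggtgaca
Gpnmb, chr4:79340878-79341127, strand +: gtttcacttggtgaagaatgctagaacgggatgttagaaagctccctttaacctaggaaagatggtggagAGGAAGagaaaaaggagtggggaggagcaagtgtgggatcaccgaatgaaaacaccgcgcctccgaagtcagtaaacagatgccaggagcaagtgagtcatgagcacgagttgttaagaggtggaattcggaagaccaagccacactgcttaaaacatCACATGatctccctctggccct
The Fcgr3a window holds 1 AGGAAG core, whose nearer end lies 50 bases before the start, and no CATGTG. The Gpnmb window holds 1 of each, at 175 and 17 bases. Of all 33469 promoter windows of this length, 29.5% hold AGGAAG and 12.1% hold CATGTG on either strand. Of the 10 genes, 6 had a window in the table: AGGAAG was found in Fcgr3a, Csf1r, Adgre1 and Gpnmb, CATGTG in Cd68 and Gpnmb, and neither in Mpeg1. A match is a description of these letters and does not show a bound site.

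Both ITAM adaptors were higher in lung. Fcer1g read 2.13 in replicate 1 and 2.06 in replicate 2 (2.09 ± 0.05; SD, n = 2; adjusted p 0.00123). Tyrobp read 1.46 in replicate 1 and 1.47 in replicate 2 (1.46 ± 0.01; adjusted p 0.00134), although its 2 probes stood apart at 1.97 and 0.96, or 3.92-fold and 1.94-fold. A range of 1.02 between 2 probes was not rare here: it was exceeded in 30.2% of the 2969 genes with 2 probes, whose median range was 0.61. The gap between Fcgr3a and Fcer1g, the chain it signals through, was 2.64 in replicate 1 and 2.69 in replicate 2, so the ratio of the receptor was 6.33-fold that of its chain. Fcer1g had a larger ratio than Fcgr1a, whose product also uses this chain.

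Genes listed as ITAM adaptors, as receptors that pair with them or as relatives of these were mostly higher. Of 11 such genes that are not among the 10, 8 were higher, 1 was lower and 2 did not pass, with a median of 2.14. Those with the largest ratios belong to natural killer and T cells or platelets: Klrd1 (CD94) at 4.86 ± 1.33 (SD, n = 2), Klrk1 (NKG2D) at 3.91 ± 0.35, the platelet receptor Treml1 at 3.36 ± 0.02 and the T cell receptor zeta chain Cd247 at 2.64 ± 0.10. Cd247 is itself an adaptor chain, and whether Treml1 pairs with any was not tested. Klrd1 rested on 5.80 in replicate 1 and 3.92 in replicate 2, and the probes of Treml1 lay at 1.73 and 4.99. Among receptors of myeloid cells, Clec4e (Mincle) was higher at 2.46 ± 0.17, Clec4d at 0.98 ± 0.10 and Trem1, an amplifier of inflammation on neutrophils and monocytes, at 0.39 ± 0.11. Trem2, the lipid-sensing partner of DAP12 on macrophages, was at -0.05 ± 0.01 and did not pass (adjusted p 0.228). It turned to 0.14 (adjusted p 0.0986) with array medians subtracted. The natural killer receptor genes Ncr1 and Ncr3 went opposite ways, at 2.14 ± 0.17 and -0.80 ± 0.25. Hcst, the adaptor gene next to Tyrobp, was not analysed here.

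Of 24 kinases and adaptors that act after ITAMs, 20 were higher in lung and 4 lower (20 and 2 with array medians subtracted), with a median of 1.54. Syk, the kinase that docks on the phosphorylated motif, was at 2.27 ± 0.13 (SD, n = 2), or 4.83-fold. Lyn, the Src family kinase that phosphorylates it, was at 3.27 ± 0.03 and Zap70, the relative of Syk in T and natural killer cells, at 3.04 ± 0.19. The scaffold Lcp2 (SLP-76) was at 2.58 ± 0.05 and the phospholipase Plcg2 at 2.47 ± 0.01. The lower genes were Card9 at -0.61 ± 0.02, Sh3bp2 at -0.53 ± 0.02, Blnk at -0.29 ± 0.01 and Fyn at -0.20 ± 0.01, and 1 of the 3 probes of Fyn was on the other side of 0 at 0.17. Blnk and Fyn no longer passed with array medians subtracted, at -0.10 (adjusted p 0.182) and -0.01 (adjusted p 0.861). Many of these genes are shared by T, B and natural killer cells.

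The inhibitory side was divided, as were all genes, of which 32.9% were higher and 49.7% lower (38.5% and 38.0% with array medians subtracted). Of 13 inhibitory receptors, phosphatases and adaptors, 6 were higher and 5 were lower, while 2 failed the test (with array medians subtracted, 8 higher and 4 lower), with a median of 0.80. Ptpn6 (SHP-1), the phosphatase that many inhibitory receptors recruit, was higher at 2.65 ± 0.01 (SD, n = 2), Cd22 of B cells at 2.11 ± 0.20 and Sirpa, the receptor for the don't-eat-me signal CD47, at 1.41 ± 0.04. The 2 probes of Cd22 lay at 0.70 and 3.52, and the lower one did not pass by itself (adjusted p 0.0711). Lilrb4 at -1.95 ± 0.03, Dok1 at -1.83 ± 0.02, Cd300a at -0.60 ± 0.06 and Dok2 at -0.43 ± 0.13 were lower. Inpp5d (SHIP1), the lipid phosphatase used by Fcgr2b, was at 0.09 ± 0.06 and did not pass (adjusted p 0.154), with 3 probes spread between -0.92 and 1.58.

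Csf1r is the receptor for the macrophage growth factors CSF1 and IL-34. Its ratio was 0.30 in replicate 1 and 0.14 in replicate 2 (0.22 ± 0.11; SD, n = 2), or 1.17-fold, and it did not pass (adjusted p 0.0622). It did pass at 0.41 (adjusted p 0.007) with array medians subtracted. Its 2 probes lay at 0.27 and 0.17, and only the first passed when probes were tested singly (adjusted p 0.0135). The ligand gene Csf1 was lower in lung at -3.16 in replicate 1 and -3.17 in replicate 2, or 8.97-fold (adjusted p 0.00117), and was lower by both of its probes, at -3.95 and -2.38. Il34 was not analysed here.

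Across 17 other genes of CSF receptors, their ligands and myeloid transcription factors, 6 were higher, 9 lower and 2 did not pass. All genes were divided much alike, with 32.9% higher and 49.7% lower. With array medians subtracted and Csf1r included, 9 were higher and 6 lower of 18, beside 38.5% and 38.0% of all genes. Pparg, the nuclear receptor that alveolar macrophages require, was at 3.60 ± 0.13 (SD, n = 2), and its inducer Csf2 (GM-CSF) at 2.74 ± 0.04. Pparg is also expressed by fat cells and other lung cells. Spi1, which encodes PU.1, was higher at 1.98 ± 0.05 and the neutrophil growth factor receptor Csf3r at 1.31 ± 0.09. Nr4a1 at -1.94 ± 0.0025, Maf at -1.59 ± 0.04 and Bhlhe40 at -1.48 ± 0.05 were lower. Irf8 was not analysed here.

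Adgre1 encodes EMR1, the adhesion G protein-coupled receptor by which mouse macrophages are usually recognised. Its single probe read -1.03 in replicate 1 and -1.01 in replicate 2, just past a 2-fold difference (-1.02 ± 0.01; SD, n = 2; adjusted p 0.00174), and the mean was -0.83 with array medians subtracted. Both arrays placed it lower in lung, and 16.6% of all genes had a lower ratio. Adgre1 was the lowest of the 15 measured adhesion receptors of its class. Of the other 14, 7 were higher, 4 lower and 3 did not pass; of all 15, 9 were higher and 4 lower once array medians were subtracted. The leukocyte receptor Adgre5 (CD97), of the same subfamily as Adgre1, was higher at 2.32 ± 0.09. Adgrf5, a surfactant regulator of alveolar type 2 cells and endothelium, was at 5.66 ± 0.02, Adgrl3 at 4.37 ± 0.30 and the endothelial receptor Adgrl4 at 4.11 ± 0.06. Adgrl3 had 2 probes, at 3.265 and 5.475. Celsr3 at -0.81 ± 0.02 and Adgrb1 at -0.73 ± 0.18 stood next to Adgre1 at the low end.

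Cd68 (macrosialin), a heavily glycosylated protein of late endosomes and lysosomes, is the usual histological marker of macrophages. It read 0.75 in replicate 1 and 0.70 in replicate 2 (0.72 ± 0.04; SD, n = 2; adjusted p 0.00302), higher in lung on both arrays and under 2-fold. Of 18 macrophage markers that are not among the 10, 13 were higher, 4 lower and 1 did not pass, with a median of 1.36. The largest ratios were those of Lyve1 at 6.06 ± 0.10, a hyaluronan receptor that lymphatic and lung capillary endothelium also express, the lysozyme gene Lyz2 at 4.61 ± 0.03, which alveolar type 2 cells also express, Timd4 at 3.03 ± 0.28 and the mannose receptor Mrc1 at 2.59 ± 0.01. The lowest were the endotoxin co-receptor Cd14 at -2.51 ± 0.01, the scavenger receptor Msr1 at -2.49 ± 0.07, the folate receptor Folr2 at -0.95 ± 0.04 and the complement gene C1qa at -0.81 ± 0.01. Lyve1 is the mean of 2 probes that stood far apart, at 3.92 and 8.21. Of 15 alveolar macrophage markers, 13 were higher, 1 lower and 1 did not pass, with a median of 1.99. They included Car4 at 5.04 ± 0.18, Abcg1 at 4.59 ± 0.02, Cd36 at 3.96 ± 0.04 and Siglec5 at 3.72 ± 0.19, and the lower gene was Fabp5 at -1.37 ± 0.04. Car4 and Cd36 are also genes of lung capillary endothelium. In RNA of mixed cells, more cells of a type and more RNA per cell cannot be told apart.

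Mpeg1 encodes perforin-2, which forms pores in bacteria inside the phagosome, and it was the least reproducible of the 10 genes. It read 1.72 in replicate 1 and 2.89 in replicate 2, that is 3.29-fold and 7.40-fold (2.30 ± 0.83; SD, n = 2; adjusted p 0.0269). Both arrays placed it higher in lung, but only 174 of all genes, or 1.11%, differed more between the arrays. The other 9 genes had SDs from 0.0076 to 0.11. The call was lost at an adjusted p under 0.01. Of 11 other pore-forming and phagosome genes, 7 were higher, 3 were lower and 1 failed the test, with a median of 1.12. Prf1, the perforin of cytotoxic lymphocytes, was at 4.55 ± 0.07, the interferon-induced GTPase Gbp2 at 2.88 ± 0.02 and Ncf1, a subunit of the phagocyte oxidase, at 2.50 ± 0.05. The oxidase subunit Cyba at -0.76 ± 0.01, the gasdermin Gsdmd at -0.69 ± 0.0019 and the nitric oxide synthase Nos2 at -0.53 ± 0.00079 were lower.

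**Figure D2:**
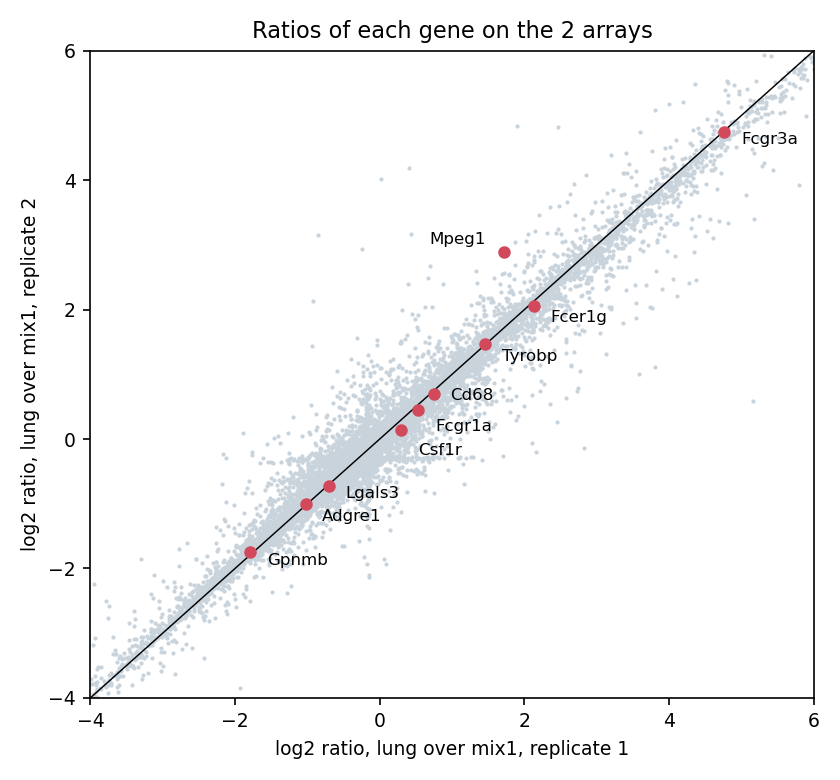
Log2 ratio of lung over mix1 in replicate 1 (x axis) against replicate 2 (y axis) for all genes (grey) and the 10 genes (red), with the line of equality; axes are limited to -4 to 6. Mpeg1 lies above the line, at 1.72 in replicate 1 and 2.89 in replicate 2, and the other 9 lie close to it.

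Gpnmb (osteoactivin) is a transmembrane glycoprotein of lysosomes and melanosomes, made by lipid-loaded macrophages, osteoclasts, osteoblasts and pigment cells. It read -1.79 in replicate 1 and -1.75 in replicate 2, or 3.41-fold lower in lung (-1.77 ± 0.03; SD, n = 2; adjusted p 0.00125). Only 6.71% of all genes had a lower ratio. Cd68, which shares its place in the lysosome, had the opposite sign, and their ratios differed by 2.54 in replicate 1 and 2.45 in replicate 2.

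Genes of lysosome-rich, lipid-laden and multinucleated macrophages were divided: of 20 that are not among the 10, 10 were higher, 7 lower and 3 did not pass, with a median of 0.22. All genes were divided too, with 32.9% higher and 49.7% lower. Osteopontin (Spp1) was lower at -8.69 ± 0.01 (SD, n = 2), the macrophage elastase Mmp12 at -6.38 ± 0.02, the osteoclast protease Ctsk at -3.63 ± 0.06 and Ctsl at -1.99 ± 0.02. Fibroblasts and bone cells in culture also express several of these. Mmp9 at 2.62 ± 0.08, the transcription factor Tfec at 2.45 ± 0.46, Apoc1 at 2.05 ± 0.11 and the calcitonin receptor Calcr at 1.84 ± 0.40 were higher. The 2 probes of Calcr lay at 0.40 and 3.27, and the lower one did not pass by itself (adjusted p 0.228). Mitf, a regulator of lysosomal and pigment genes that acts on Gpnmb, was lower at -0.96 ± 0.10. Beside these, 10 of 14 osteoblast and pigment cell markers were lower and 3 higher, with a median of -0.73 and a range from -8.69 to 4.72. The part of these cells in the ratio of Gpnmb, or of any macrophages among the cultured marrow cells of mix1, was not tested.

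Lgals3 encodes galectin 3, a galactose-binding lectin of macrophages that epithelium and fibroblasts also make. It read -0.70 in replicate 1 and -0.72 in replicate 2, or 1.64-fold lower in lung (-0.71 ± 0.01; SD, n = 2; adjusted p 0.00255). Galectin 1 (Lgals1), the main galectin of cultured mesenchymal cells, was lower at -5.00 in replicate 1 and -4.78 in replicate 2, so the ratio of Lgals3 was 18.1-fold that of Lgals1. Of 13 other galectins and partners of galectin 3, 6 were higher, 4 lower and 3 did not pass; with array medians subtracted and Lgals3 included, 8 were higher and 4 lower of 14. Lgals5, a galectin of rat red cells, was higher at 3.83 ± 0.04 and Lgals7, of stratified epithelium, at 1.71 ± 0.24, while Lgals2 was lower at -0.98 ± 0.03. Among ligands, the epithelial mucin Muc1 was higher at 5.33 ± 0.07, and the integrin Itgb1 and the hyaluronan receptor Cd44 were lower at -1.14 ± 0.01 and -0.36 ± 0.16. Cd44 no longer passed with array medians subtracted, at -0.17 (adjusted p 0.174), and 1 of its 2 probes did not pass by itself (adjusted p 0.195). Lgals3bp did not pass at -0.09 ± 0.03 (adjusted p 0.0934), and was at 0.09 with array medians subtracted.

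The 10 genes spanned 6.53 on the log2 scale, from Gpnmb to Fcgr3a. Set against Csf1r, which removes any shift common to an array, Fcgr3a was 4.47 higher in replicate 1 and 4.60 in replicate 2, Fcer1g 1.83 and 1.92, and Tyrobp 1.16 and 1.33. Cd68 was 0.45 above Csf1r in replicate 1 and 0.55 in replicate 2, and Fcgr1a 0.24 and 0.30. The largest gap among Cd68, Fcgr1a and Csf1r on either array was therefore 0.55. Adgre1 was below Csf1r by -1.32 in replicate 1 and -1.15 in replicate 2, Lgals3 by -1.0 and -0.86, and Gpnmb by -2.09 and -1.89. Mpeg1 was 1.42 above Csf1r in replicate 1 and 2.75 in replicate 2, far wider apart than for the other genes. The sign of each of these 9 differences was the same on both arrays. Csf1r was chosen for this after its values were seen. With 7 of the 10 genes measured by 1 probe, the scale of differences between probes of a gene, a median of 0.61 over genes with 2 probes and a 90th percentile of 2.03, is larger than the mean gaps among Cd68, Fcgr1a and Csf1r, and smaller than the gaps of Fcgr3a to Fcer1g and Csf1r.

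**Figure D3:**
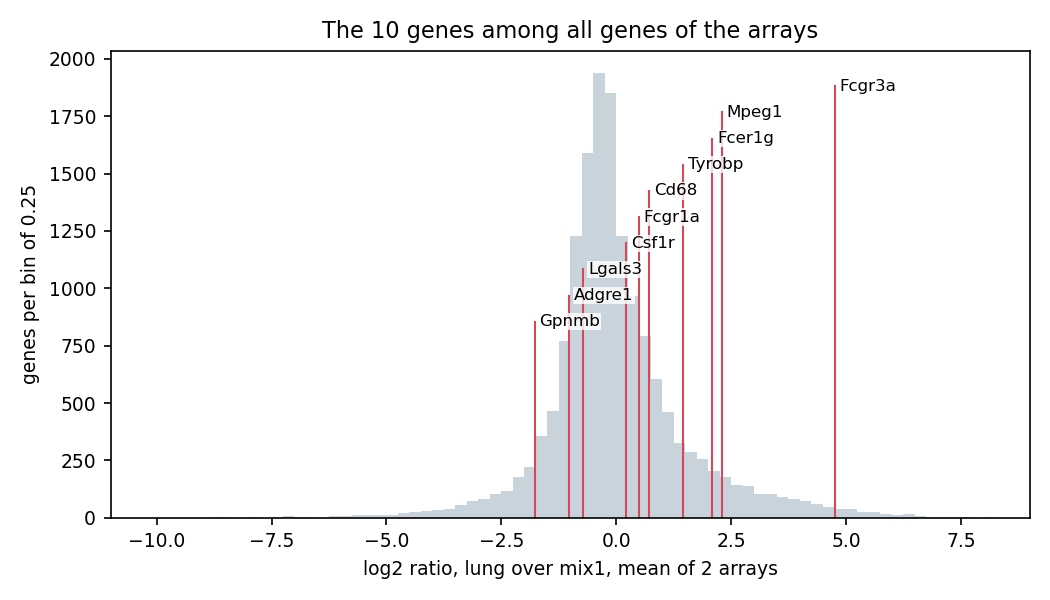
Number of genes per bin of 0.25 (y axis) by mean log2 ratio of lung over mix1 (x axis), with the 10 genes as red lines whose heights only separate the names. Gpnmb stands lowest at -1.77 and Fcgr3a highest at 4.76, and 7 of the 10 lie above the median gene.

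Several of the 10 genes are not confined to macrophages, and markers of the other cells that use them moved in the same RNA. Some of these markers were already counted above, such as Klrd1, Klrk1, Ncr1, Prf1, Treml1, Fcer1a, Ms4a2, Fcrla and Cd22. The counts here are therefore not separate from the earlier ones. Fcer1g and Tyrobp are also expressed by natural killer cells and neutrophils, and Fcer1g by mast cells and platelets. Which lung cells express the gene measured here as Fcgr3a was not tested. Of 12 natural killer cell markers, 11 were higher in lung and 1 did not pass, with a median of 3.49 and a range from 0.95 to 4.86. Of 14 neutrophil markers, 11 were higher and 3 did not pass (median 2.84, range -0.29 to 7.65). Of 11 mast cell and basophil markers, 9 were higher and 1 lower (median 2.37, range -6.73 to 3.75), and of 10 platelet markers 9 were higher and 1 lower (median 1.83, range -0.99 to 8.38). The lower ones were Il1rl1 at -6.73 ± 0.06 (SD, n = 2) and Gp1ba at -0.99 ± 0.15. Il1rl1 is the mean of 2 probes that stood far apart, at -9.84 and -3.62. Of 15 monocyte and dendritic cell markers, 10 were higher and 4 lower (median 0.84, range -5.95 to 4.33), and of 7 B cell markers 6 were higher and 1 did not pass (median 2.62, range 2.01 to 5.06). That low end of 2.01 is Ms4a1, the B cell marker that did not pass, at 0.01 in replicate 1 and 4.01 in replicate 2. The arrays give ratios and not levels, so which markers were absent cannot be read from them. The part of each cell type in the ratios of the 10 genes was not tested.

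The lung RNA was checked against markers of epithelium, and mix1 against markers of fibroblasts and marrow stroma. Which other marrow cells mix1 held, macrophages included, was not tested. Of 12 alveolar and airway epithelial markers, 11 were higher in lung and 1 did not pass (median 5.54, range 0.0017 to 7.95), although the sign had been settled with 6 of these genes. Of 15 markers of fibroblasts and marrow stroma, 14 were lower and 1, the leptin receptor Lepr at 1.20 ± 0.15 (SD, n = 2), was higher (median -4.80, range -7.44 to 1.20). The ratios of the 2 arrays had a Pearson correlation of 0.983 across genes, which are not independent replicates.

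**Figure D4:**
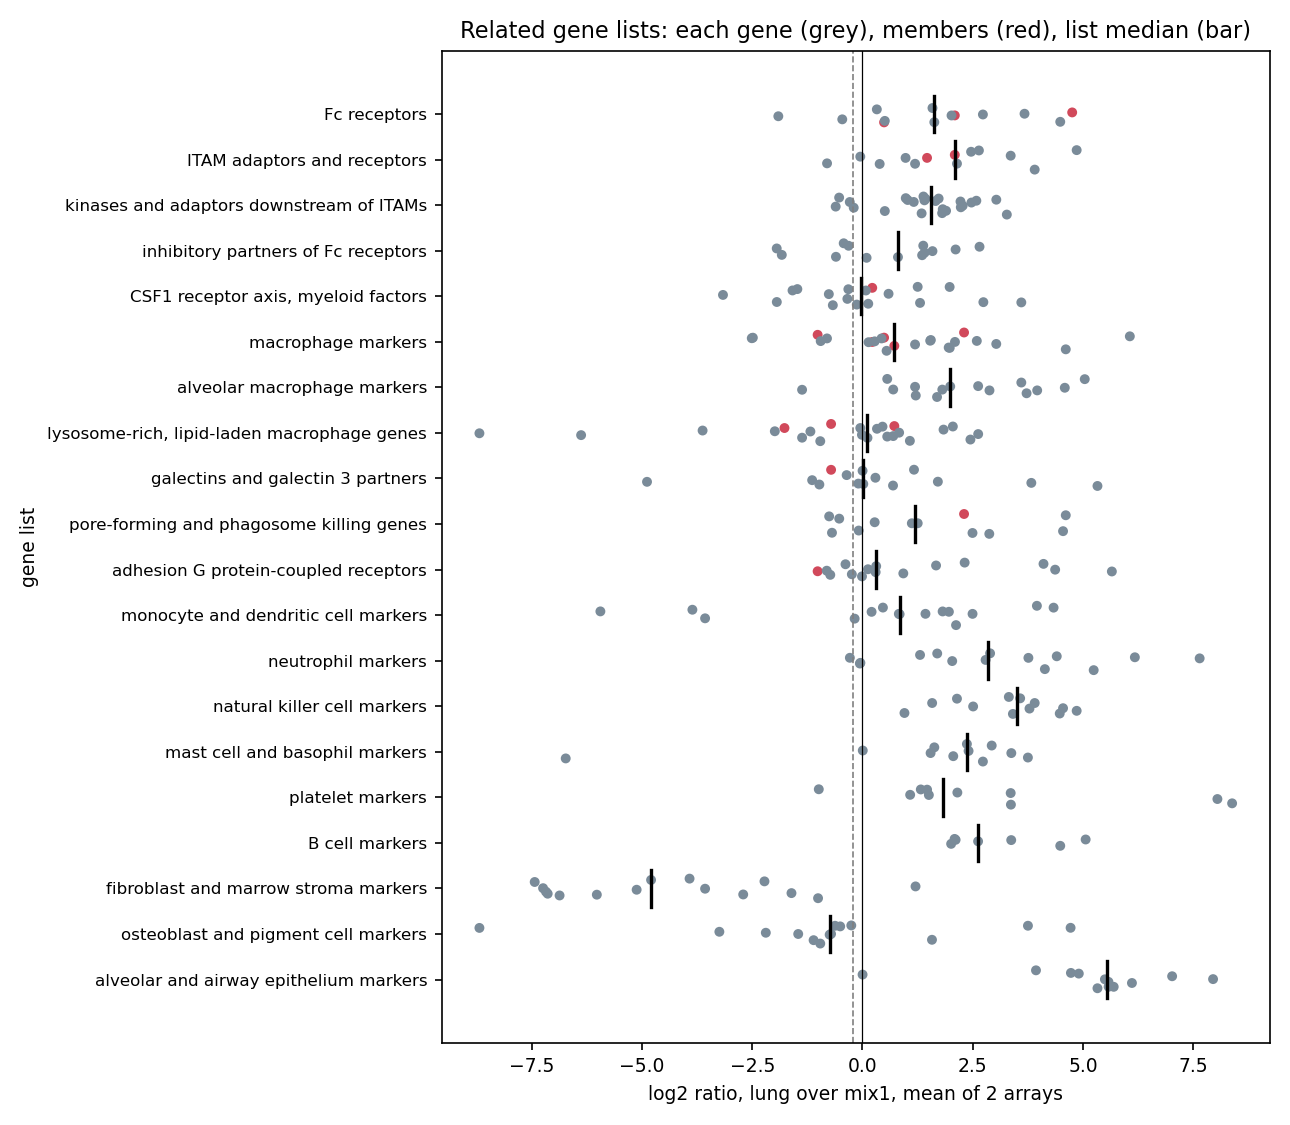
Mean log2 ratio of lung over mix1 (x axis) of each gene (points) in 20 gene lists (rows); red points are the 10 genes, black bars are list medians, and the dashed line is the median of all genes. Natural killer cell markers, none of them among the 10 genes, have a median of 3.49. Macrophage markers have points on both sides of 0 and a median of 0.72, or 1.36 without the 5 that are among the 10 genes.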

How the data were processed

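Agilent Feature Extraction is the tool named, per the submitters' processing notes; the sources used here do not give its version, background correction, dye normalization or centring. For each of 40012 probes the authors deposited a value on each array, used here as the log2 ratio of lung (Cy3) over mix1 (Cy5). No source states the log base. Base 2 was assumed for fold changes, since values between -11.74 and 9.09 would be too wide for a scanner on a base of 10. The arrays have probe medians of -0.16 (replicate 1) and -0.21 (replicate 2), and what value they were centred on is unknown. How background was treated sets the size of ratios with a dim channel. Direction was taken from the series' wording and 6 lung genes.

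GEO's platform annotation gives 20417 probes 1 symbol each and 19595 none. Names were updated through RefSeq accessions (16987 probes), symbols (3035) or synonyms (387) of assembly GRCr8, and 8 were kept. Coordinates are printed only for RefSeq promoters, since the arrays name no build. Probes of a gene were averaged (3767 genes had several).

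All 15611 genes were fitted with limma 3.58.1 (R 4.3.3), using lmFit on an intercept and eBayes, with Benjamini-Hochberg adjustment at 0.05, with 1 residual and 1.28 prior degrees of freedom. The fit was tested on simulated data. The members and the 20 gene lists were chosen with earlier results of these data known. Named are all members, direct partners, and up to 4 genes at either end of a list past the threshold. The lists are described by counts and medians, with no set test.

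Alternatives tried were centring on array medians, robust eBayes, scaling between arrays, single probes, a gene's median probe (with an even number, the lower middle one), the annotation's own symbols, an adjusted p under 0.01, treat against 2-fold, folds of 1.5 and 4, leaving out each array, and Fcgr2a in place of Fcgr3a, the last chosen after seeing the data.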

Additional observations from a re-analysis of the deposited data

How the results depend on the processing

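Of 83 comparisons of a member's ratio with an alternative that has a test, 75 kept their direction and their side of the threshold, 6 lost a call, 2 gained one and 0 turned. For the other named genes there were 800 such comparisons, of which 741 were kept, 50 lost a call, 3 gained one and 6 turned. Robust eBayes, treat, the stricter threshold and the annotation's own symbols left every member's ratio unchanged, so they could not turn a sign. Neither could the choice of probe for the 7 members with 1 probe. The 20 values from a single array have no test, and each kept its sign. With treat against 2-fold, 3 members were higher and 1 lower in place of 6 and 3, and the list genes gave 35 lower in place of 73. The median ratio of the members was 0.61, and became 0.79 with array medians subtracted, 0.51 with the median probe, 0.68 over single probes and 0.36 with Fcgr2a in place of Fcgr3a. With array medians subtracted, 1 member was at least 2-fold lower in place of 2, because Adgre1 lies at that limit. With the median probe, 3 members were at least 2-fold higher in place of 4, because Tyrobp then read 0.96. At 4-fold, 2 members were higher and 0 lower. The shares of all genes past treat or past 4-fold were not computed, so these counts have no background beside them. Leaving out an array gave medians from 0.57 to 0.64, and 4 higher and 2 lower members past 2-fold each time; limma's test needs both arrays. Signs turned for Trem2 (0.14) and Lgals3bp (0.0937) with array medians subtracted, for 1 probe of Fyn (0.17), and for Inpp5d with the median probe (-0.39) and with 2 of its 3 single probes (-0.92 and -0.39); the cause was not tested. No paired analysis was possible because there is 1 group. Signal over background is unknown, since no scanner intensities were used here.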

Other observations

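Of the 263 genes in the lists, 8 differed by at least 2-fold between the arrays (3.04%, beside 1.79% of all genes). Replicate 2 was the higher for 5 of them and replicate 1 for 3. The B cell gene Ms4a1 (CD20) had a log2 ratio of 0.01 in replicate 1 and 4.01 in replicate 2, and the macrophage sialic acid receptor Siglec1 0.45 and 1.94. These genes were named after their values were seen.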
